A study of Canis rufus and Canis latrans with 56 samples.

Results

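The proteins of the small subunit of the cytosolic ribosome were followed here through 26 genes measured in whole blood of 13 red wolves (Canis rufus) and 1 coyote (Canis latrans). They are the measured genes whose symbol in the probe annotation is RPS with a number from 2 to 29, in the plain, A or X form, together with FAU, out of 16121 named genes. The rule uses gene symbols alone. It also takes RPSA and RPS27A, which were not analysed here. Each of the 26 genes has a single probe. The blood was kept in RNAlater, and each animal's labelled RNA went on 4 human Illumina bead arrays, 56 in all on 7 slides. The design counts 6 captive and 7 free-ranging wolves of both sexes and a free-ranging female coyote. Which wolf was captive and which was male was not known here, so neither was compared, and ages are not stated. Repeated arrays of 1 RNA are technical, and the correlations and the coyote comparison use 1 value per animal. The F test among wolves uses all arrays of the wolves. Its p-values set the differences between wolves against the spread between arrays only.

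The small subunit is the part of the ribosome that binds messenger RNA, scans it for the start codon and checks each codon against its transfer RNA. Its proteins sit on the ribosomal RNA in a head and in a body with a platform, and a ribosome carries a single copy of each. Cells that divide or make much protein hold large amounts of their messengers, whose translation is controlled together through a pyrimidine tract at the start of the messenger. Red cell formation is sensitive to their supply: inherited loss of a gene copy of RPS19, RPS10, RPS26 or RPS24 causes Diamond-Blackfan anaemia, in which red cell precursors fail. Mature red cells have no ribosomes, and the ribosomal messengers of blood come from white cells, platelets and young red cells.

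A level below is the log2 intensity of a probe relative to the mean of its array, adjusted for slide, so that 1 unit stands for a 2-fold change of intensity. A gene name is that of the human probe, and how well each probe binds the canid messenger was not measured. An order of probes by level is therefore one of array signal and says nothing of how much of each messenger was present. The number of arrays limits the precision. As a bound for background served the brightest of 39 liver and skeletal muscle genes, HPX, at a level of 0.396, which 2064 of 24354 probes (8.47%) exceeded. The signal range of an array, taken as the 95th percentile of its values, ran from 0.332 to 1.24. The 4 arrays of wolf 11136 had the narrowest range on average, 0.381, and the single narrowest array was that of wolf 11310 on slide 32022. That array also stood apart from the other arrays of wolf 11310 in RPS14, RPS9 and RPS10, and its main effects are given beside the results it moves.

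Most of the small subunit probes gave little signal in canid blood. Averaged over the 14 animals, RPS14, RPS9, RPS10, RPS4X and RPS19 exceeded the bound, and the other 21 did not. RPS14, a platform protein close to where messenger RNA leaves the subunit, stood at 6.51 ± 0.25 (SD, n = 13 wolves). RPS9, which lines the entry of the messenger channel, stood at 4.76 ± 0.48, and RPS10, a protein of the head near the same entry, at 3.02 ± 0.50. RPS4X, the X-linked form of a body protein, and RPS19, the gene most often mutated in Diamond-Blackfan anaemia, lay just above the bound at 0.47 ± 0.13 and 0.44 ± 0.15. Just below it were RPS6, the protein that growth signals phosphorylate, at 0.28 ± 0.09, and RPS28, a head protein near the messenger exit, at 0.18 ± 0.27. The remaining 19 had mean levels between -0.42 (RPS13) and 0.10 (RPS27). A low level says that the human probe was not well above background here, and leaves the amount of the messenger unknown.

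**Figure D1:**
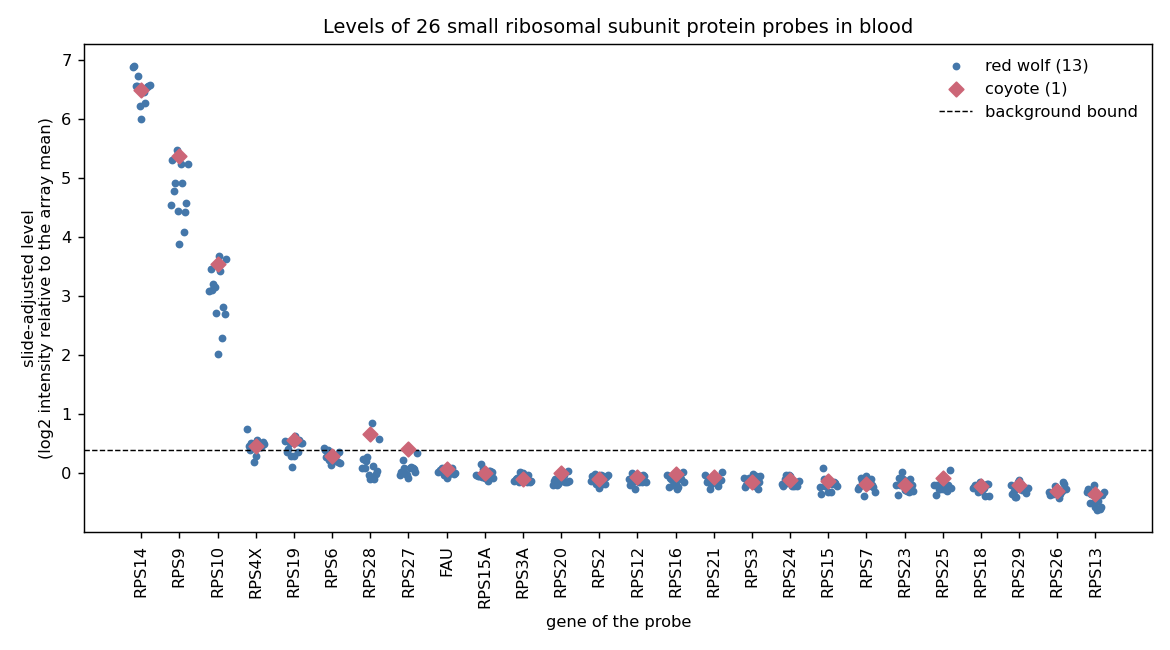
Slide-adjusted level (log2 intensity relative to the array mean) of the 26 small subunit probes, ordered by mean level, with 1 blue point for each of the 13 wolves, a red diamond for the coyote and a dashed line at the background bound of 0.396. RPS14, RPS9 and RPS10 lie far above the line in every animal, while 19 probes have mean levels of 0.10 or lower.

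The first question was which of these genes differed among the 13 wolves by more than their repeated arrays. By limma's F test, which kept slide in the model, 5 of the 26 genes passed (adjusted p under 0.05, Benjamini-Hochberg over all probes): RPS9, RPS10, RPS28, RPS14 and RPS19. This is 19.2%, where 11.2% of all 24354 probes passed. Of the 5 genes above the bound 4 passed, against 78.1% of all probes above it, and of the 21 others 1 passed (4.76%), against 5.02%. By place in the subunit, 3 of 11 measured head proteins passed (RPS10, RPS19 and RPS28) and 2 of 15 of the body and platform (RPS9 and RPS14).

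RPS9 had the largest F of the 26 genes on the deposited scale. Its level was lowest in wolf 11148 at 3.89, had a median of 4.77 and was highest in wolf 111080 at 5.48, a 3-fold span in intensity. Wolf 11273 followed the lowest at 4.09, and wolves 11274, 11136, 10406 and 11275 stood between 4.43 and 4.57. At the upper end wolves 10537, 11206 and 11310 reached 5.31, 5.23 and 5.23. Without its array of slide 32022, wolf 11310 stood at 5.47, against 5.51 in wolf 111080. The arrays of both end wolves lay apart. After slide adjustment the 4 arrays of wolf 11148 read 3.90, 3.93, 3.86 and 3.88, and those of wolf 111080 read 5.52, 5.63, 5.24 and 5.52. Neighbours such as wolves 11274 and 11136, or 11206 and 11310, differ by less than the standard error of a wolf's level, 0.10, while both ends lie many such errors apart. The SD over wolves was 0.48 against 0.20 between arrays once slide was fitted (limma F = 16.5, adjusted p = 3.54e-13). Of the variance left after the slide term, 0.84 lay between wolves. RPS9 passed under all 29 other settings, with its largest adjusted p, 8.42e-06, after quantile normalization, where the SD was 0.24.

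RPS10 ranked the wolves in much the same way. Wolf 11148 was again lowest at 2.02 and wolf 11273 next at 2.29. The median was 3.10, and wolves 11206 and 11310 were highest at 3.68 and 3.63, which makes a 3.14-fold span. The arrays of wolf 11148 read 1.96, 1.97, 2.33 and 1.84 after slide adjustment, below every array of wolf 11206, at 3.47, 3.79, 3.86 and 3.59. In wolf 11310 the arrays read 3.94, 3.83, 3.82 and, on slide 32022, 2.93. Without that array wolf 11310 was the highest of all, at 3.91. RPS10 had an SD over wolves of 0.50 against 0.29 between arrays once slide was fitted (limma F = 12.6, adjusted p = 8.34e-11). Of the variance left after the slide term, 0.718 lay between wolves. The differences between slides, which were large for RPS10, are not counted in that share. RPS10 passed under all 29 other settings, at adjusted p values up to 0.020 without the slide term. Its adjusted p was smaller than that of RPS9 after quantile normalization (2.76e-11 against 8.42e-06) and with equal spread of arrays (1.97e-12 against 4.41e-08).

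RPS14, the brightest of the 26, varied less. Its level ran from 5.99 in wolf 11148 through a median of 6.55 to 6.88 in wolf 10406 and 6.89 in wolf 10537, a 1.87-fold span. The 7 wolves between 6.46 (wolf 11270) and 6.57 (wolf 11310) lie within the standard error of a level, 0.12. Wolf 11310 would stand at 6.89 without its array of slide 32022, and would then be highest. The SD over wolves was 0.25 against 0.23 between arrays once slide was fitted (limma F = 4.17, adjusted p = 0.00146). This call ended without wolf 11148 (adjusted p = 0.0759) and without the slide term (adjusted p = 0.145).

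For both dimmer genes that passed, the call ended when a single wolf was left out. RPS19 was lowest in wolf 11136 at 0.11, had a median of 0.51 and was highest in wolf 11206 at 0.64, and 8 of the 13 wolves lay above the bound (limma F = 3.29, adjusted p = 0.0123). The highest wolf is not firm. The arrays of wolf 11206 read 0.46, 0.99, 0.45 and 0.65, the highest on slide 32013. Wolf 10406 was highest after quantile normalization (0.60) and with equal spread of arrays (0.58). Wolf 11136 had the narrowest signal range, and without it RPS19 no longer passed (adjusted p = 0.309). The call also ended without slide 32010 or 32021 (adjusted p = 0.0945 and 0.113) and without the slide term (adjusted p = 0.0928). RPS28 stood above the bound in only 2 wolves, 11206 at 0.85 and 11310 at 0.58 (0.83 and 0.74 without the array of slide 32022), and between -0.09 and 0.28 in the other 11 (limma F = 4.84, adjusted p = 0.000289). In wolf 11206 its arrays read 0.38, 1.70, 0.69 and 0.65, the highest of them on slide 32013. Without slide 32013 it still passed (adjusted p = 0.0134), and without wolf 11206 it narrowly did not (adjusted p = 0.0563, SD over wolves 0.18). RPS28 passed under 27 of 28 other settings.

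Of the genes that did not pass, RPS4X ran from 0.19 in wolf 11136 through a median of 0.46 to 0.76 in wolf 10406 (adjusted p = 0.0694). It passed under 7 of 29 other settings, among them quantile normalization (adjusted p = 0.00444). RPS23, which reaches into the decoding centre, stood between -0.37 and 0.03 (adjusted p = 0.0729), below the bound in every wolf. RPS27, a zinc-binding protein of the body, had adjusted p = 0.150, RPS15, whose tail reaches toward the decoding site, 0.165, and RPS13, which helps to join the subunits, 0.241. For the other 16 genes the adjusted p lay between 0.416 and 0.913. The highest of these was FAU, which encodes a subunit protein fused to a ubiquitin-like protein, with levels between -0.08 and 0.09. RPS6 exceeded the bound in 2 wolves, with 10406 highest at 0.43. No wolf exceeded it for any of the 18 dimmest genes or for RPS27, so these give no measured order of the wolves.

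**Figure D2:**
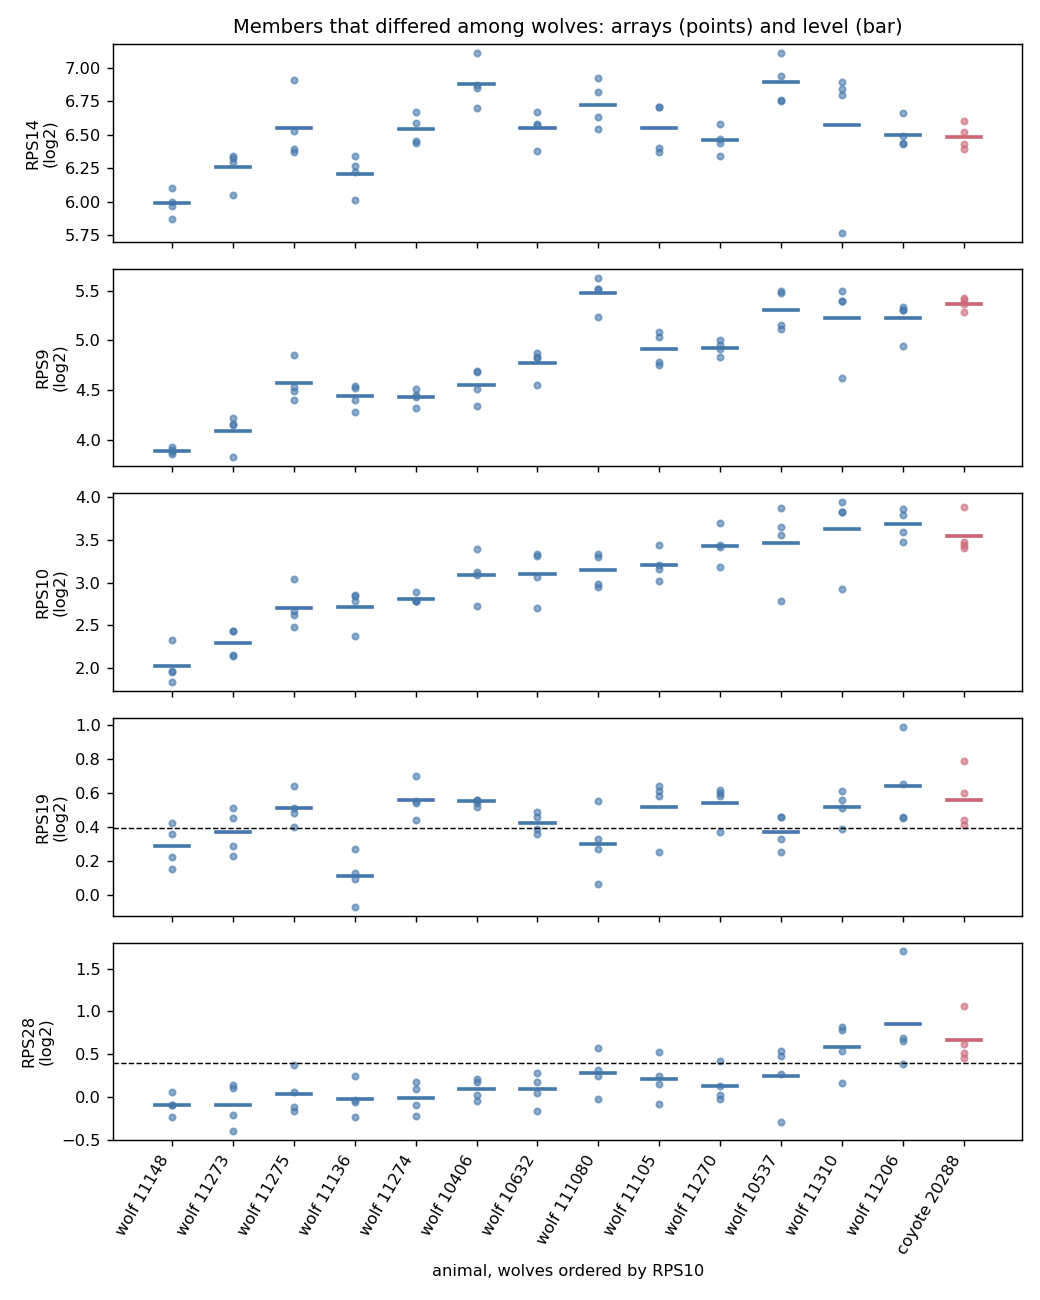
The 5 genes that differed among wolves, in log2 units, with 4 slide-adjusted arrays (points) and the level (bar) of each animal, wolves in blue ordered by RPS10 and the coyote in red; dashed lines mark the background bound of 0.396. RPS9 and RPS10 climb together from wolf 11148 to wolves 11310 and 11206. Among the wolves the level of RPS28 exceeds the bound only at that end, and it is 0.66 in the coyote. In the upper 3 panels 1 array of wolf 11310 lies far below its other arrays.

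Of the 5 genes that differed, wolf 11148 had the lowest level of RPS14, RPS9 and RPS10. RPS28 read -0.09 in wolves 11148 and 11273, below the bound. Wolves 11136 (-0.02) and 11274 (-0.01) lay within the standard error of its level, 0.15, so its lowest wolf is not resolved. The signal range of wolf 11148, 0.741, was close to that of most wolves. Among all 2064 probes above the bound, 6.20% were lowest in wolf 11148, against 40.4% in wolf 11136, 22% in wolf 11310 and 15.7% in wolf 11273. On each of its 4 slides wolf 11148 lay below the mean of the other wolves of the slide, by 0.69 to 1.06 for RPS9, 0.69 to 1.21 for RPS10 and 0.48 to 0.64 for RPS14.

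When the arrays were scaled otherwise, the lowest wolf remained 11148 for RPS9 and RPS10 and not always for RPS14, and the order above it changed. RPS9 and RPS10 stayed lowest in wolf 11148 after quantile normalization (4.35 and 2.37), after 75th-percentile centring (3.78 and 1.91), with the spread of arrays made equal (4.31 and 2.26) and without the slide term (3.96 and 2.31). RPS14 stayed lowest in wolf 11148 after 75th-percentile centring (5.87) and without the slide term (6.15). It was lowest in wolf 11105 after quantile normalization (6.24, against 6.28 in wolf 11148) and in wolf 11206 with equal spread (5.74). With equal spread wolf 11136, whose narrow arrays are stretched most, rose to the highest RPS14 level, 7.97, and the SD over wolves from 0.25 to 0.63. RPS28 was lowest in wolf 11273 after quantile normalization, with equal spread and without the slide term (-0.07, -0.09 and -0.10), and highest in wolf 11206 under each of these settings. The upper end was less fixed. RPS9 was highest in wolf 10632 after quantile normalization (5.11) and in wolf 11136 with equal spread (5.67), and RPS10 in wolves 10632 (3.52) and 11310 (3.71).

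**Figure D3:**
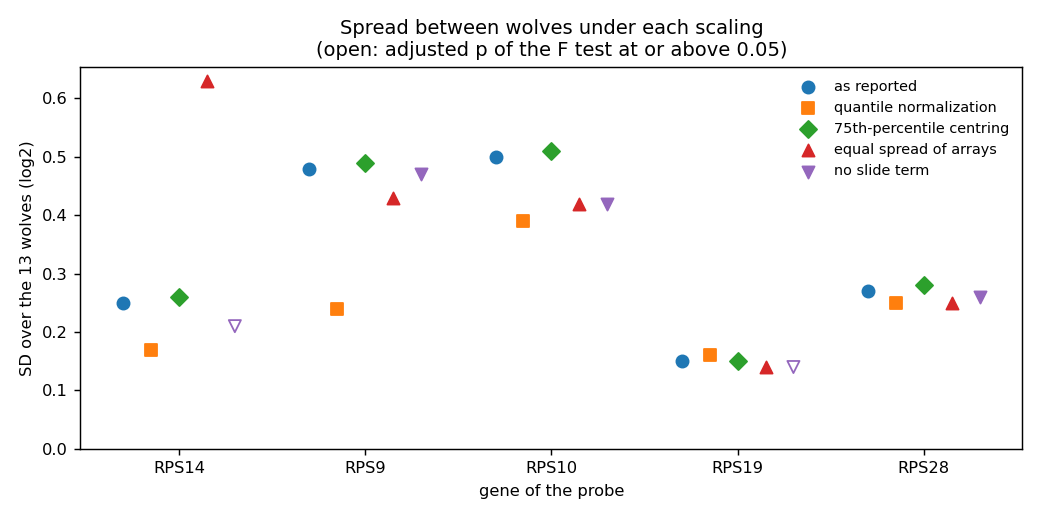
SD over the 13 wolves (log2) of the 5 genes under the reported values and 4 other settings; filled symbols passed limma's F test at an adjusted p under 0.05 and open symbols did not. RPS10 keeps an SD between 0.39 and 0.51, RPS9 falls to 0.24 after quantile normalization, RPS14 rises to 0.63 with equal spread, and RPS14 and RPS19 are open without the slide term.

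The levels of RPS9, RPS10 and RPS28 went together over the 13 wolves. All 10 pairs of the 5 genes were correlated, two-sided with 100000 permutations and Benjamini-Hochberg adjustment over the 10. For RPS9 with RPS10, Pearson's r was 0.89 (adjusted p = 5e-04, permutation p = 5e-05 unadjusted), while Spearman's rho was 0.86 (adjusted p = 0.00113, permutation p = 0.00034 unadjusted). The r rose to 0.95 when wolves 11148 and 111080, whose RPS9 is farthest from the median, were left out. On single slides it took values from 0.59 to 0.99. Of the other probes above the bound 0.533% had at least this r with RPS10. Under 19 other settings r stayed between 0.81 and 0.97 and passed each time.

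RPS10 with RPS28 had r = 0.80 (adjusted p = 0.00523, permutation p = 0.00121 unadjusted). Their rho was 0.94 (adjusted p = 1e-04; the permutation p of 1e-05 is the smallest these permutations can give). Without wolves 11148 and 11273 r was 0.83, and within slides it ran from 0.31 to 0.90. RPS9 with RPS28 had r = 0.76 (adjusted p = 0.00523, permutation p = 0.00157 unadjusted), with a rho of 0.92 (adjusted p = 0.00015, permutation p = 3e-05 unadjusted). It was 0.80 without wolves 11148 and 111080, and 0.27 to 0.89 within slides. Of the other probes above the bound, 6.10% had at least the r of RPS10 with RPS28, and 12.7% at least that of RPS9. Both calls ended after quantile normalization (r = 0.49 and 0.40, adjusted p = 0.223 and 0.337) and with equal spread of arrays (r = 0.50 and 0.15, adjusted p = 0.207 and 0.644). Since 11 wolves lie below the bound for RPS28, its order among them is that of dim signals.

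RPS14 was linked more loosely to the others. With RPS9 its r was 0.69 (adjusted p = 0.0221, permutation p = 0.00886 unadjusted) and its rho 0.64, which did not pass (adjusted p = 0.0529, permutation p = 0.0212 unadjusted). With RPS10 its r was 0.67 (adjusted p = 0.0235, permutation p = 0.0117 unadjusted) and its rho 0.45, which did not pass either (adjusted p = 0.161, permutation p = 0.126 unadjusted). Both relations rest on wolves 11148 and 10537, without which r was 0.44 and 0.41. Leaving out wolf 10537, 11148 or 11273 alone gave adjusted p values of 0.0507, 0.173 and 0.0565 with RPS9, and 0.0507, 0.212 and 0.0634 with RPS10. Neither passed with equal spread of arrays (r = 0.64 and 0.33) or without the slide term (0.60 and 0.54), nor RPS10 with slide as a random block (0.60). On single slides r ran from 0.54 to 0.88 with RPS9 and from 0.56 to 0.90 with RPS10. Of the other probes above the bound, 24.2% had at least the r of RPS14 with RPS9, and 21% at least its r with RPS10. The 4 pairs with RPS19, and RPS14 with RPS28, had r between 0.28 and 0.52 and adjusted p values between 0.115 and 0.359.

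**Figure D4:**
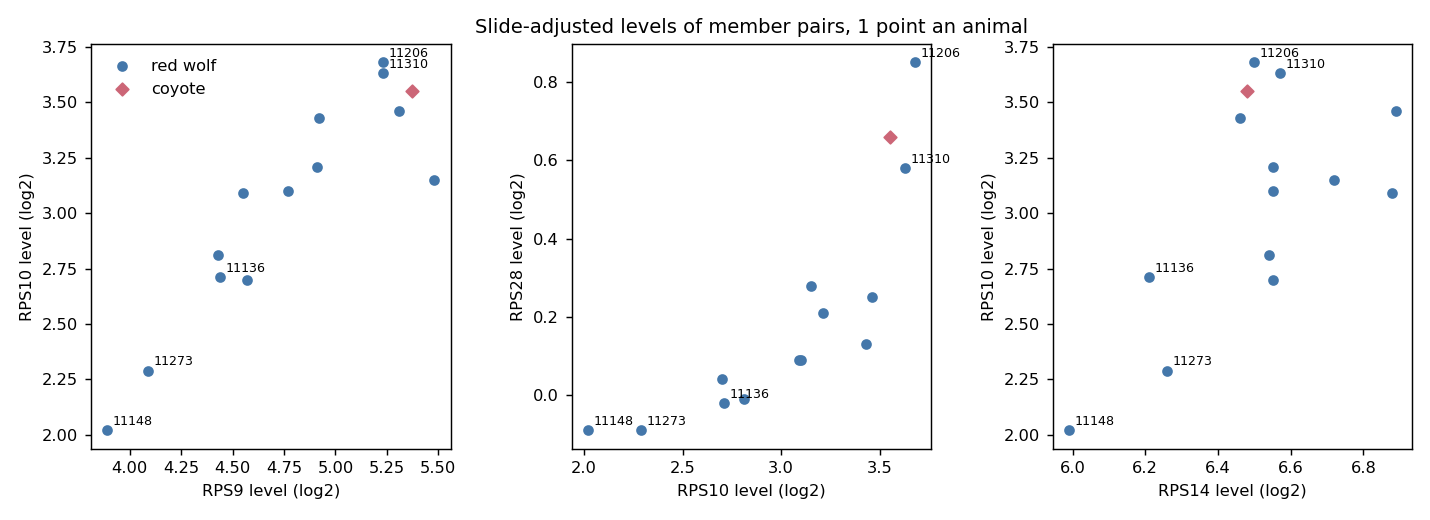
Slide-adjusted levels (log2) of RPS9 and RPS10, RPS10 and RPS28, and RPS14 and RPS10, with 1 blue point for each wolf and a red diamond for the coyote. RPS9 and RPS10 form a band with r = 0.89 over the wolves, and wolves 11148, 11273 and 11136 hold the low end of RPS14. Among the wolves RPS28 rises above 0.5 only in 11206 and 11310, and the coyote stands at 0.66.

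Whole blood mixes cell types, and fewer cells of a type cannot be told apart from less RNA per cell. The mean level of 6 marker lists and the signal range of the arrays were set beside the 5 genes over the 13 wolves. None of the 35 relations passed (largest absolute r 0.65, adjusted p values between 0.297 and 0.883). The largest were monocyte markers with RPS28 (r = 0.65, permutation p = 0.0141; rho = 0.39, permutation p = 0.189), which fell to 0.16 without wolves 11310 and 11206, and platelet markers with RPS10 (r = -0.65, permutation p = 0.017; rho = -0.51, permutation p = 0.0771; -0.77 without wolves 11273 and 11136). Within slides these ran from 0.05 to 0.81 and from -0.93 to 0.14. The signal range had r of 0.24 with RPS9 and 0.07 with RPS10 (permutation p = 0.441 and 0.831). Its largest r was 0.43, with RPS19 (permutation p = 0.148), which was -0.02 without wolves 11136 and 10406. Within slides the signal range had r from 0.24 to 0.77 with RPS9 and from -0.09 to 0.77 with RPS10. With RPS28 these ran from 0.01 to 0.92, and with RPS19 from -0.46 to 0.90. Few markers were measured well: 7 of 16 red cell, 3 of 18 T cell, 0 of 14 B cell, 1 of 21 neutrophil, 2 of 14 monocyte and 1 of 16 platelet genes lay above the bound. Red cell markers had mean levels between 0.54 in wolf 11310 and 0.98 in wolf 11105, and platelet markers between 0.03 in wolf 11136 and 0.14 in wolf 11273. Over the wolves monocyte markers ran from -0.12 to -0.01, T cell markers from -0.04 to 0.06, B cell markers from -0.10 to 0.00 and neutrophil markers from -0.03 to 0.04. The part of the cell types in the differences was not tested beyond these relations.

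Slides moved several of these probes as well. With animal kept in the model, 7 of the 26 genes (26.9%) differed between slides in limma's F test, where 18.1% of all probes did. They were RPS10, RPS3, RPS14, RPS6, RPS23, RPS15 and RPS4X. RPS10 was affected most, from 0.41 below its average on slide 32011 to 0.60 above it on slide 32020 (adjusted p = 6.86e-09). RPS14 ran from -0.25 on slide 32022 to 0.32 on slide 32020 (adjusted p = 0.00119), and RPS3, a protein of the messenger entry, from -0.25 on slide 32024 to 0.19 on slide 32021 (adjusted p = 0.000966). RPS9 did not pass (adjusted p = 0.206; -0.17 to 0.21). Slides differed in 2 of the 26 genes after quantile normalization and in 4 with equal spread of arrays. The share of all probes under these scalings is not given here, so the fall cannot be read as particular to these genes.

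The same F test was read for genes that work with the small subunit. As given above, 11.2% of all probes passed it, and 78.1% of those above the bound. Of 43 measured proteins of the large subunit 15 passed (34.9%), and all 12 that lay above the bound were among them. RPL18 (SD 0.93), RPL27 (0.58), RPL10A (0.53) and RPL27A (0.52) had the largest spread. Of these 12, RPL18, RPL10A, RPL27A, RPL12, RPLP2, RPL35A and RPLP1 were lowest in wolf 11136, RPL27, RPL6 and RPL23 in wolf 11273, RPL30 in wolf 11310, and RPL11 alone in wolf 11148. Of 28 factors that load messenger RNA on the small subunit 10 passed (35.7%), 8 of them among the 9 above the bound. The helicase EIF4A2 and the scaffold EIF4G2 ranged from 2.36 and 2.45 in wolf 11273 to 4.23 and 4.42 in wolf 11206. The poly(A)-binding PABPC1 was lowest in wolf 11136 at 3.20, and EIF3L, a part of the factor that holds the small subunit, in wolf 11273 at 1.55. Among 26 assembly factors of the small subunit 2 passed (7.69%), and these were the 2 that lay above the bound. They were NPM1, a nucleolar chaperone (1.26 in wolf 11136 to 2.50 in wolf 11310), and IMP3, a part of the early precursor (0.78 in wolf 11310 to 1.56 in wolf 11105). Of 29 proteins of the mitochondrial small subunit 3 passed (10.3%), 1 of them, MRPS31, among the 2 above the bound. MRPS31 was lowest in wolf 11206 (2.96) and highest in wolf 10406 (4.59). Of 15 genes of the kinase pathway that phosphorylates RPS6 none passed, and none lay above the bound. These lists differ in how many probes lie above the bound, and their counts were not tested against each other.

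The second question was whether the coyote differed from the wolves. No small subunit gene passed in limma's comparison of the coyote with the 13 wolves (0 of 26, against 0.00411% of all probes). At an unadjusted p under 0.05 stood 2 of 26, RPS27 and RPS28, where 3.74% of all probes did. Both were higher in the coyote, as 1.88% of all probes were at that p. This count was 1 without the intensity trend and without slide 32021. Leaving out dim probes removed both genes from the comparison, so that setting cannot speak to them. The coyote's RPS27 level was 0.42. The wolves had 0.07 ± 0.11 (SD, n = 13), from -0.07 in wolf 11148 through a median of 0.08 to 0.34 in wolf 11310. The coyote exceeded the mean of the wolves on each of its 4 slides, by 0.15 to 0.53 (difference 0.35, 95% interval 0.12 to 0.58, adjusted p = 0.998). Of the 26 genes it alone lay above the range of all wolves in the coyote, as 5.76% of all probes did, and no gene lay below it; 12.2% of all probes lay outside that range. Every wolf was below the bound. Without the array of slide 32022 wolf 11310 came to 0.40, against 0.43 in the coyote. RPS28 stood at 0.66 in the coyote, between wolves 11310 and 11206, and below both without that array (0.68 against 0.74 and 0.83; difference with all arrays 0.48, 95% interval 0.07 to 0.90, adjusted p = 0.998).

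Of the bright genes, RPS9 stood at 5.37 and RPS10 at 3.55 in the coyote, near the upper end of the wolves and within their range. Their differences from the wolves' mean were 0.62 (95% interval -0.70 to 1.94) and 0.53 (-0.76 to 1.82), both with adjusted p = 0.998. After quantile normalization they were 0.45 and 0.25, and without the slide term 0.67 and 0.76. RPS14 stood at 6.48, a difference of -0.03 (-0.85 to 0.79, adjusted p = 0.999), and its sign turned with the setting. RPS3A and RPS26, proteins near the messenger exit, had the next lowest differences. RPS3A was -0.09 in the coyote and ran from -0.15 through a median of -0.08 to 0.02 in the wolves. RPS26 was -0.30 in the coyote and ran from -0.42 through a median of -0.31 to -0.15 in the wolves. Both are dim in every animal. In all, 21 of 26 genes stood higher in the coyote than the wolves' mean, with a median difference of 0.05 on the log2 scale, where 49.1% of all probes did, with a median of -0.0021. Of the 5 genes with a mean level above the bound 3 were higher, where 757 of 2064 probes above it were. Of the 21 others 18 were higher, where 11196 of 22290 probes at or below the bound were, and their signals are dim. The count of higher genes was between 18 and 24 under the settings that kept all 26. With a single coyote, whose spread is taken to equal that of the wolves, the intervals of RPS9 and RPS10 include differences of more than 2-fold.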

How the data were processed

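The deposited values are log2 intensities. The submitters' processing notes name BeadStudio 1.5.0.34 for their extraction, and the series' design text says that the authors centred each array on its median. Array means are 0 (largest absolute mean 3.24e-09). Array medians lie between -0.167 and -0.0325, so values are relative to the mean, and the spread of arrays is not equal. Whether background was subtracted is not stated there. The annotation names 18339 of 24354 probes and leaves 6015 unnamed; no canid genome or probe sequence was used. RPS4Y1, RPS27L and the kinases were left out by the rule. Some genes that the rule would take are not analysed here.

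R 4.3.3 and limma 3.58.1 fitted all probes together, letting the prior variance follow intensity, with Benjamini-Hochberg adjustment at 0.05. Wolves were compared by the F test of animal with slide kept. For the coyote, 1 slide-adjusted value per animal was fitted, and its moderated fit gave the intervals. The fits for wolves and for the coyote were tested on simulated data. Genes were named with values where they passed and lay above the bound, were among the 3 brightest, or had the 3 largest coyote differences in a direction; others, such as RPS4X, RPS27 and RPS23, were chosen after their values were seen. Of the other lists, up to 4 genes with the largest SD were given values. The members and lists were chosen with earlier results of these data known. Alternatives covered scaling, the slide term, probes, the trend, and leaving out each animal and slide.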

Additional observations from a re-analysis of the deposited data

Results flagged for a closer look

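The 4 slide-adjusted arrays of each of the 14 animals were checked for a single array far from its 3 fellows, in 9 genes, which makes 126 groups. In 12 of them the gap was larger than Dixon's limit, where chance flags about 1 in 20 groups.

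Wolf 11310 on slide 32022 stood apart in 3 genes at once: RPS14 at 5.77 against 6.80 to 6.89, RPS9 at 4.62 against 5.40 to 5.50, and RPS10 at 2.93 against 3.82 to 3.94. This array had the lowest 95th percentile of all 56, 0.332. Without it the same 5 genes differed among wolves.

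RPS14 read 6.05 in wolf 11273 on slide 32011 (others 6.30 to 6.34). RPS9 read 4.55 in wolf 10632 on slide 32024 (4.82 to 4.87) and 4.94 in wolf 11206 on slide 32013 (5.31 to 5.34). RPS10 read 3.88 in the coyote on slide 32021 (3.41 to 3.48) and 2.89 in wolf 11274 on slide 32011 (2.78 in the others). RPS19 read 0.25 in wolf 11105 on slide 32013 (0.58 to 0.64) and 0.37 in wolf 11270 on slide 32024 (0.58 to 0.62). RPS27 read 0.35 in wolf 11105 on slide 32022 (-0.01 to 0.03), and RPS3A 0.14 in wolf 10406 on slide 32022 (-0.22 to -0.19).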

How the results depend on the processing

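The count of small subunit genes that differed among wolves was 5 as reported and 3 without the slide term (RPS9, RPS10 and RPS28), and between 4 and 7 under every other setting. Of all probes 11.2% passed as reported and 8.13% without the slide term. With dim probes left out 86.7% of the probes kept passed, as did all 5 genes above the bound. Under the remaining settings the share of all that was tested lay between 8.87% and 12.2%. The count for the coyote was 0 under each setting. Genes differing between slides fell from 7 to 2 after quantile normalization and to 4 with equal spread of arrays, with no share of all probes given beside them. The coyote differences of RPS14, RPS26 and RPS3A were -0.03, -0.0096 and -0.018 and had no stable sign. RPS14 turned to 0.029 after quantile normalization, 0.094 without the slide term and 0.040 with slide as a random block, RPS26 to 0.0059 with 75th-percentile centring and 0.0022 with equal spread. Leaving out an animal or slide gave -0.075 to 0.016, -0.062 to 0.034 and -0.055 to 0.0044. With equal spread the correlations of RPS14 with RPS19 and RPS28 and of RPS9 with RPS19 turned to -0.30, -0.50 and -0.32. The cause of these changes was not tested. The alternative without 1 array of wolf 11310 and those of the correlations were chosen after seeing the data. Few arrays and dim signals limit the order of wolves in the 21 genes below the bound.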
